A study of Mus musculus with 9 samples.

Results

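The transcripts described here are the abundant ones among those assembled from the reads of mouse male germ cells and listed only under an assembly number, written MSTRG.locus.transcript. A transcript was taken when its mean level reached 50 CPM, which is its share of the library's total count scaled to parts per 1000000, over the 3 libraries of at least 1 of 3 cell types. The rule kept 245 of 7512 assembled transcripts, in 201 of 5804 assembled loci, where transcripts that share the first number belong to 1 locus. The cell types, with 3 libraries of each, are PAC (pachytene spermatocytes), RS (round spermatids) and ES (elongating spermatids). All 9 came from testis of wild-type mice, so no group carries an altered allele or a treatment, and the sources used here do not state strain, age, number of animals or how the cells were isolated. The submitters' design text calls the libraries biological replicates, and p-values below measure the spread between these libraries. By its title the series is about TSCL1, a long non-coding RNA, and its binding to PIWIL1, and the libraries profile long RNAs across the 3 stages.

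StringTie joins aligned reads into transcripts and gives assembly numbers of this form. Pachytene spermatocytes are known to transcribe much of the genome outside protein-coding genes, including long precursors that are cut into the small RNAs bound by PIWI proteins. Round spermatids are the haploid cells that follow the meiotic divisions, and elongating spermatids replace histones with protamines, shut transcription down and keep stored RNA. The files pair the assembly numbers with no gene name, coordinates or sequence. Whether a transcript overlaps a known gene, makes small RNAs or encodes a protein was not analysed here.

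Of the 245 transcripts, 167 reached 50 CPM in PAC, 100 in RS and 90 in ES. The largest group, 105 transcripts, reached it in PAC alone. RS alone held 28 and ES alone 27, PAC and RS together held 22, PAC and ES 13, RS and ES 23, and all 3 cell types 27. PAC gave the highest mean for 142 transcripts (58.0%), RS for 56 (22.9%) and ES for 47 (19.2%). By the same rule 129 of 21104 RefSeq non-coding transcripts were abundant, of which 38.0% were highest in PAC, 38.8% in RS and 23.3% in ES. Among the 4657 of 21877 NCBI genes that met it, these shares were 54.2%, 28.0% and 17.8%. These counts describe the selection, which used the same levels.

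**Figure D1:**
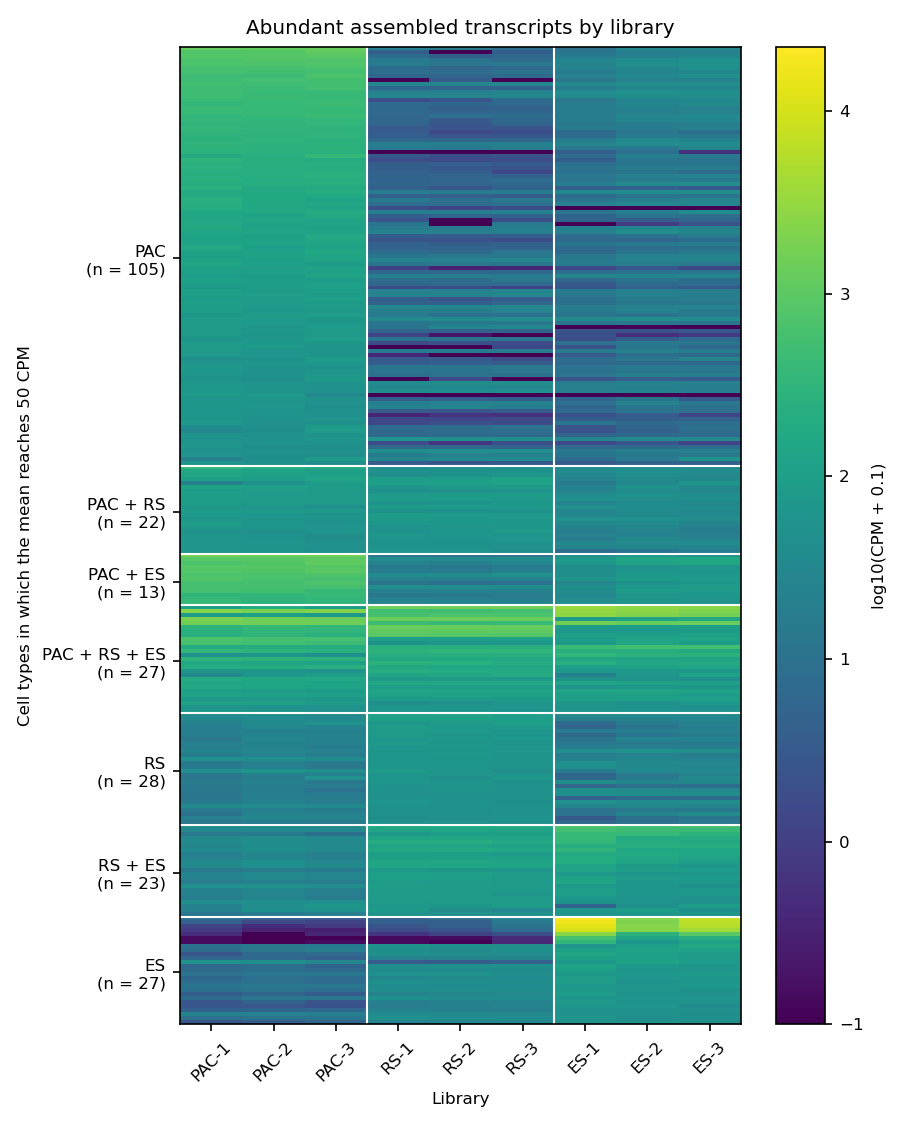
Level of each of the 245 assembled transcripts (rows) in each of the 9 libraries (columns), as log10(CPM + 0.1). Rows are grouped by the cell types in which the mean reached 50 CPM and ordered by level. The 105 transcripts at the top are high in the 3 PAC libraries and low in RS and ES, and in the ES group at the bottom a few transcripts are far brighter in ES-1 than in ES-2 and ES-3.

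The selected transcripts took 4.42% ± 0.134 of all counts in PAC (SD, n = 3), 1.85% ± 0.00605 in RS and 5.57% ± 3.12 in ES. The wide ES spread came from libraries with 9.08%, 3.11% and 4.54% for ES-1, ES-2 and ES-3. Total counts per library ran from 22910156 to 33801617. At that depth 3 counts per library correspond to a mean of 0.0945 CPM in RS and 0.126 CPM in ES, and these floors cover counting error only. Markers of the 3 stages went with the labels: 12 pachytene marker genes summed to 2772 to 2823 CPM in PAC, 1159 to 1170.1 in RS and 669 to 999.7 in ES. Sums of 12 elongating spermatid markers were 4549 to 5875 CPM in PAC, 22613 to 25132 in RS and 49371 to 65676 in ES. Markers of other testis cells were present at low levels: 12 Sertoli cell genes summed to 64.5 to 149.9 CPM in PAC, 58.2 to 65.3 in RS and 371 to 449 in ES. Of these sums Amhr2 alone gave 48.7 to 54.4 CPM in RS and 136 to 175 CPM in ES. All 12 Sertoli cell genes had a higher mean in ES than in RS, but Amh and Fshr stayed at or below 0.398 CPM in each library. Leydig cell genes were at 101 to 133 CPM in PAC, 2.02 to 2.38 in RS and 17.2 to 20.1 in ES. Macrophage and blood genes were at 6.85 to 8.24 CPM in PAC, 21.1 to 25.4 in RS and 159.5 to 208 in ES. Of the 12 in that list 10 had a higher mean in ES than in RS. Highest in ES were the globin genes Hbb-bs, at 58.6 to 84.4 CPM, and Hba-a1, at 35.3 to 45.6 CPM. In RNA from many cells, fewer cells of a type and less RNA per cell cannot be told apart.

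The 4 highest mean levels belonged to a set of 7 transcripts of 5 loci that were low in PAC and RS and high in ES, and that were set apart, among the transcripts at 50 CPM in ES, by a level in ES-1 of over 3 times the mean of ES-2 and ES-3. MSTRG.15178.1 had 7.77, 3.66 and 2.53 CPM in PAC-1, PAC-2 and PAC-3, 4.28, 8.64 and 21.2 CPM in RS-1, RS-2 and RS-3, and 22499, 2439 and 7864 CPM in ES-1, ES-2 and ES-3. MSTRG.26569.2 had 4.28, 1.69 and 1.12 CPM in PAC, 4.39, 4.29 and 15.7 CPM in RS and 17008, 2062 and 6560 CPM in ES. For MSTRG.15177.1 the levels were 1.14, 0.411 and 0.703 CPM in PAC, 2.45, 4.01 and 10.1 CPM in RS and 13577, 2357 and 5675 CPM in ES. Each of the 3 ES libraries lay far above each PAC and RS library for these transcripts, and ES-1 lay far above the other ES libraries. MSTRG.26573.1 followed with 0.800, 0.242 and 0.175 CPM in PAC, 1.72, 2.53 and 7.54 CPM in RS and 10871, 2429 and 4143 CPM in ES. MSTRG.26569.1, from the same locus as MSTRG.26569.2, had 2575, 269 and 954 CPM in the ES libraries and at most 1.76 CPM in any other library. The weakest of the 7 were MSTRG.26570.1 at 609.9, 134 and 226 CPM in ES and MSTRG.26570.2 at 329, 65.2 and 114 CPM in ES, both at or below 0.341 CPM elsewhere. Their locus numbers fall in 2 runs, 15177 and 15178 and then 26569, 26570 and 26573; what that means for their position was not analysed here.

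The ES libraries kept 1 order across the 7 transcripts: each was highest in ES-1 and lowest in ES-2. RS-3 was the highest RS library in 7 of 7, and PAC-1 the highest PAC library in 6 of 7. Summed, the 7 reached 67469, 9755 and 25536 CPM in ES-1, ES-2 and ES-3, which was 6.92 times the ES-2 sum in ES-1 and 2.62 times the ES-2 sum in ES-3. The RS sums were 13.5, 20.5 and 56.9 CPM, 3.35 times higher in RS-3 than the mean of RS-1 and RS-2, and the PAC sums ran from 4.85 to 14.4 CPM. Their proportions to each other differed less between the ES libraries than their levels. MSTRG.15178.1 made up 33.3%, 24.998% and 30.8% of the sum of the 7 in ES-1, ES-2 and ES-3, and MSTRG.26569.2 made up 25.2%, 21.1% and 25.7%. MSTRG.26573.1 made up 16.1%, 24.9% and 16.2%, which put it level with MSTRG.15178.1 in ES-2. Per length, in FPKM, the authors' fragment counts scaled by transcript length and library, MSTRG.15178.1 stood at a mean of 12728 in ES, MSTRG.26573.1 at 8466, MSTRG.15177.1 at 8452 and MSTRG.26569.2 at 4659. All 7 were short by the lengths their values imply, 688 to 1839 bases.

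ES-1 held 65.7% of the ES sum of these 7 and 37.7% of that of the 83 other transcripts at 50 CPM in ES, where libraries at equal levels would hold 1 part in 3. The ratio of ES-1 to the mean of ES-2 and ES-3 was 4.37 for MSTRG.15178.1, 4.21 for MSTRG.26569.1, 3.95 for MSTRG.26569.2, 3.67 for MSTRG.26570.2, 3.39 for MSTRG.26570.1, 3.38 for MSTRG.15177.1 and 3.31 for MSTRG.26573.1. With 1 library against a pair there is no test. The 7 were set apart by this same ratio, so its values in other features are given as a description only. None of 9507 features outside the assembled set with an ES mean of at least 5 CPM had ES-1 over 3 times the mean of ES-2 and ES-3. Among 1000 assembled transcripts outside the selection at that level 5 did. Over the 90 transcripts that reached 50 CPM in ES, the ratio had a median of 1.12 and ES-1 was the highest library in 49 (54.4%). Over the 2943 other features at that level the median was 0.842, the range 0.212 to 2.24, and ES-1 was highest in 26.1%. Leaving out the 7, the remaining 83 assembled transcripts had a median of 1.09 and a range of 0.0738 to 2.10. In 12 of the 83 ES-1 was over 1.5 times the mean of ES-2 and ES-3, and in 13 that mean was over 1.5 times ES-1.

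**Figure D2:**
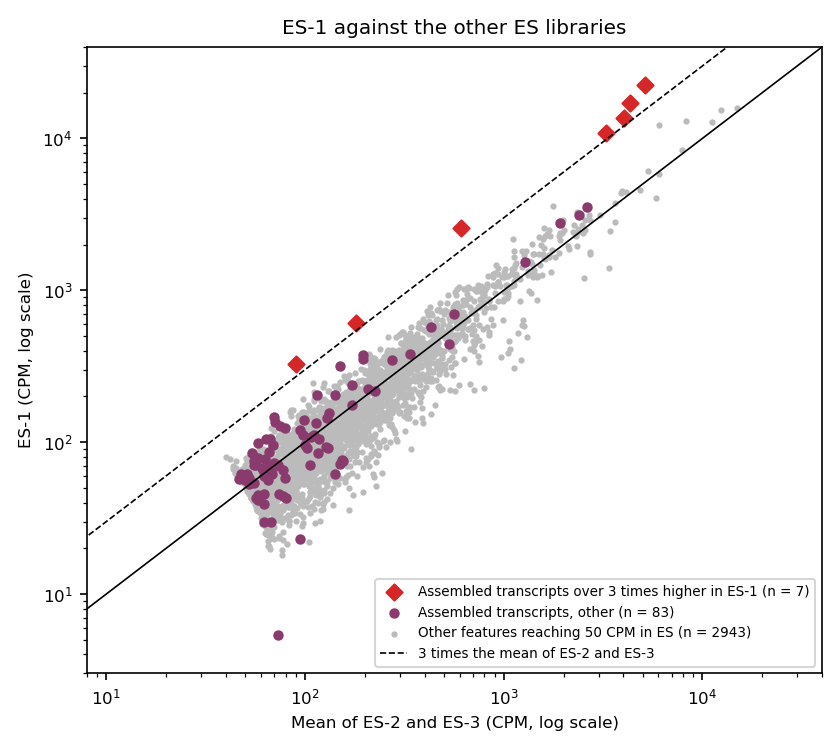
Level in ES-1 (vertical axis, CPM, log scale) against the mean of ES-2 and ES-3 (horizontal axis, CPM, log scale) for features whose ES mean reached 50 CPM. Diamonds mark the 7 assembled transcripts with ratios of 3.31 to 4.37, which lie above the dashed line of 3 times, while the 83 other assembled transcripts and the 2943 other features lie around the solid line of equal levels.

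Summed over all 245 transcripts, the ES mean was 55740 CPM with ES-1 and 38227 CPM without it, and ES-1 alone gave 54.3% of the ES total. The 7 transcripts made up 61.5% of this ES sum with ES-1 and 46.2% without it. By library they were 74.3% of the sum over the 245 in ES-1, 31.4% in ES-2 and 56.3% in ES-3. In ES-2 the other 238 thus held the larger part. The other 238 transcripts summed to 23297, 21308 and 19857 CPM in ES-1, ES-2 and ES-3. Their ES mean of 21487 ± 1727 CPM (SD, n = 3) was 20582 CPM without ES-1, and lay above the 18483 ± 83.6 CPM of RS and below the 44194 ± 1340 CPM of PAC. The ES share above that of PAC, 5.57% against 4.42%, thus rested on the 7, and on ES-1: without it the ES mean of 38227 CPM lay below the 44202 CPM of PAC.

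Selection itself depended little on ES-1. Without it 2 transcripts fell below 50 CPM everywhere: MSTRG.28817.1 with 61.4, 46.6 and 48.1 CPM in ES-1, ES-2 and ES-3, and MSTRG.9719.1 with 57.3, 50.4 and 43.1 CPM. In the other direction MSTRG.3290.1 would join the selection. Some transcripts were far lower in ES-1 than in the rest. MSTRG.20989.3 had 5.39, 47.7 and 98.5 CPM in ES, a ratio of 0.0738, MSTRG.13296.3 had 22.9, 61.3 and 126 CPM, a ratio of 0.244, and MSTRG.24735.1 had 61.9, 108 and 174 CPM, a ratio of 0.439. For these 3 the order was ES-1 below ES-2 below ES-3, and the ES means of 50.5, 70.2 and 115 CPM lay nearest to ES-2. The sums of their loci rose in the same order in PAC. In PAC-1, PAC-2 and PAC-3 locus 20989 had 28.6, 60.5 and 102 CPM, locus 13296 had 37.2, 73.3 and 105 CPM, and locus 24735 had 9.78, 13.5 and 16.6 CPM. In RS only locus 13296 kept that order, so it was not particular to the ES libraries. One further high ratio, 3.65 for MSTRG.11564.5, belonged to a transcript at 2.07, 0.414 and 0.722 CPM in ES, where few counts stand behind each value. Closest to the threshold from above were MSTRG.9719.1 (50.2 CPM, in ES), MSTRG.21358.1 (50.6 CPM, in PAC) and MSTRG.27659.3 (50.7 CPM, in RS). Just below it were MSTRG.6743.6 and MSTRG.810.3 at 49.4 CPM, in PAC and RS, and MSTRG.25737.2 at 49.3 CPM in PAC.

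A length for each transcript follows from its count and its FPKM, both deposited by the authors, as CPM × 1000 / FPKM. For 530 RefSeq non-coding transcripts with 1 GENCODE transcript this implied length was 0.9997 times the annotated one at the median, with quartiles of 0.999 and 1.01. Over the libraries it varied by a factor of at most 1.02 within an assembled transcript. The 245 ran from 207 to 49912 bases with a median of 3372, against 1287 for 3164 other assembled transcripts with enough counts and 1091 for the 129 RefSeq non-coding transcripts chosen by the same rule. The longest were MSTRG.18601.2 at 49912 bases, MSTRG.18601.4 at 49695 and MSTRG.12214.1 at 40578. Shortest were MSTRG.4367.1 at 207 bases, MSTRG.9875.1 at 275 and MSTRG.10219.2 at 421.

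Implied length differed between the groups. Transcripts that reached 50 CPM in PAC alone had a median implied length of 7927 bases and those in PAC and ES 16227, against 2517 for RS alone, 1331 for RS and ES and 1178 for ES alone. Those in PAC and RS were short too, with a median of 1573 bases, as were those in all 3 cell types, with 2148. Of 58 transcripts over 10000 bases, 53 were highest in PAC, and of 25 over 20000 bases, 24 were. At 1 molar level a longer RNA gives more fragments, which a threshold on counts does not correct. Over the 245, the rank correlation of implied length was 0.29 with the highest mean CPM and -0.76 with the highest mean FPKM. These correlations across transcripts are descriptions, and FPKM itself holds the length. Lengths also went with the ES-1 ratio. Over the 90 transcripts at 50 CPM in ES the rank correlation was -0.66, with a median ratio of 0.554 for the 14 over 10000 bases and 1.36 for the 47 under 2000. Those 47 include the 7 set apart by the ratio. Without the 7, the median of the 40 under 2000 bases was 1.25 and the rank correlation was -0.65. Other features showed it as well, at -0.57 over 2943, with medians of 0.413 for the 44 over 10000 bases and 1.01 for the 1276 under 2000. The 7 transcripts were set apart by this same ratio, so setting theirs against these medians would test nothing.

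**Figure D3:**
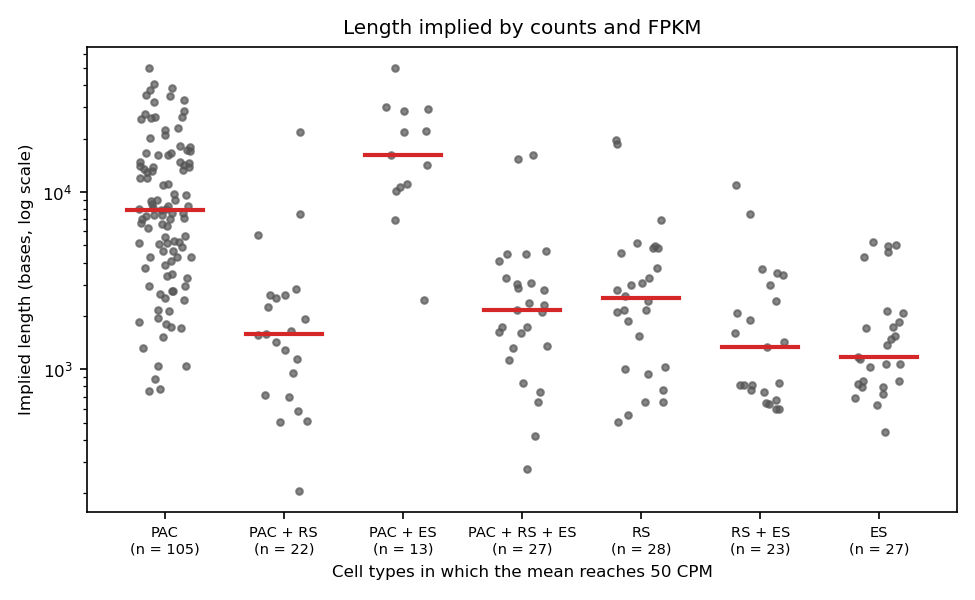
Implied length of each assembled transcript (vertical axis, bases, log scale) by the cell types in which its mean reached 50 CPM. Points are transcripts, spread sideways for sight, and red bars are medians: 7927 bases for PAC alone, 16227 for PAC and ES, and 1178 for ES alone.

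Levels in 1 pair of cell types can be tested for transcripts that were chosen in the remaining cell type, since its libraries do not enter that comparison. Transcripts chosen in ES were tested between RS and PAC, those chosen in PAC between ES and RS, and those chosen in RS between ES and PAC, each with edgeR's quasi-likelihood test over 6 libraries and adjustment by Benjamini-Hochberg over all features. Log2 fold changes are on counts scaled by TMM factors, and a call means an adjusted p below 0.05. The pairs share libraries with each other.

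Between RS and PAC, 88 of the 90 transcripts chosen in ES had enough counts: 54 were higher in RS (61.4%) and 23 lower (26.1%), with a median log2 fold change of 1.69. Across all 25166 features 39.7% were higher and 36.3% lower, with a median of 0.09. The higher calls include MSTRG.26573.1 and MSTRG.26569.1, which entered the test only through RS, so their direction was fixed. MSTRG.26570.1 and MSTRG.26570.2 were too low in both cell types to be tested. The 2 directions belonged to different transcripts. All 13 that reached 50 CPM in PAC and ES were lower in RS, and of 25 tested that reached it in ES alone 22 were higher and 1 lower. Of the 23 in RS and ES 21 were higher, and of the 27 abundant in all 3 cell types 11 were higher and 9 lower. That grouping uses the PAC and RS levels and so is a description.

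MSTRG.13076.1 fell most, with 12.2, 11.2 and 10.3 CPM in RS-1, RS-2 and RS-3 against 1540.3, 1376 and 1382 CPM in PAC-1, PAC-2 and PAC-3. Its log2 fold change was -7.03 (SE 0.14, edgeR adjusted p = 8.71e-09), and it stood at 44.998, 62.7 and 52.7 CPM in ES. MSTRG.2247.1 had 11.1, 9.20 and 9.92 CPM in RS against 584, 591 and 731 CPM in PAC (log2 fold change -6.02). MSTRG.24111.2 had 16.4, 12.4 and 15.3 CPM in RS against 867, 878 and 865 CPM in PAC (log2 fold change -5.93). All 3 have implied lengths of 16227 to 30305 bases, and in each case no RS library came near the PAC range. In ES the 3 had means of 53.5, 51.4 and 52.7 CPM, above each of their RS libraries.

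Highest was MSTRG.10219.2, implied length 421 bases, with 1448, 1523 and 1681 CPM in RS against 106, 198 and 98.1 CPM in PAC (log2 fold change 3.50, SE 0.27, edgeR adjusted p = 1.24e-05). It continued up to 3519, 2781 and 2485 CPM in ES-1, ES-2 and ES-3, and with a mean of 6974 FPKM in ES it was among the most abundant per length. MSTRG.23136.1 had 18.2, 21.7 and 27.4 CPM in RS against 2.69, 2.43 and 2.09 CPM in PAC (log2 fold change 3.18). MSTRG.26573.1, of the 7 high in ES-1, had a log2 fold change of 3.16 (SE 0.76, edgeR adjusted p = 0.00688), and the adjusted p was 0.0573 without PAC replicate 3. Among the 7, 5 could be tested and 3 were higher in RS, and in each RS-3 was the highest RS library. The other called ones were MSTRG.15177.1 (log2 fold change 2.83, edgeR adjusted p = 0.00465, or 0.0532 without PAC replicate 3) and MSTRG.26569.1 (2.28, edgeR adjusted p = 0.0235). For MSTRG.26569.1 the adjusted p was 0.108 without RS replicate 3, 0.0522 without RS replicate 2 and 0.16 with all 9 libraries in 1 edgeR fit. MSTRG.26573.1 and MSTRG.26569.1 had enough counts for the test only through their RS libraries, so their p-values do not stand as support for the direction. MSTRG.15178.1 and MSTRG.26569.2, the most abundant pair, were not called (log2 fold changes 1.24 and 1.70, edgeR adjusted p = 0.131 and 0.0598). Without RS replicate 1 both passed (edgeR adjusted p = 0.0439 and 0.0487), as did MSTRG.26569.2 without PAC replicate 1 (0.0348).

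Between ES and RS, 166 of the 167 transcripts chosen in PAC were tested: 94 were higher in ES (56.6%), 28 lower (16.9%) and 44 not called, with a median log2 fold change of 0.88. The higher calls include MSTRG.15141.6, MSTRG.24113.3 and MSTRG.11564.3, and the lower calls MSTRG.22607.2 and MSTRG.20881.4. These entered the test only through the cell type where they were higher, so their direction was fixed. Further transcripts of this kind were not counted. Of all 24807 features 27.4% were higher and 23.3% lower, with a median of 0.07. Scaling by total counts alone moved the split to 79 higher and 41 lower, so 65.8% of calls were higher rather than 77.0%, while the median of all features moved to -0.29. All 13 transcripts at 50 CPM in PAC and ES were higher in ES. Of 104 tested transcripts at 50 CPM in PAC alone, 70 were higher in ES and 8 lower, with a median of 1.18. Of the 22 in PAC and RS 15 were lower and 7 not called, again a grouping that uses the compared levels. The 12 pachytene marker genes summed to 669, 999.7 and 974 CPM in ES-1, ES-2 and ES-3 against 1159 to 1170.1 CPM in RS, while 6 of the 12 had a higher mean in ES than in RS. Divided by the TMM factors of all 9 libraries, the sums were 854, 1079 and 1038 CPM in ES against 1074 to 1090 CPM in RS, with 8 of the 12 higher in ES. Sertoli cell markers summed to 371 to 449 CPM in ES against 58.2 to 65.3 CPM in RS. The part of either list in the result was not tested.

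For the transcripts at 50 CPM in PAC alone, the levels in RS and ES are a description, since the grouping uses the compared levels. Summed over the 105, they had 21940, 20796 and 22541 CPM in PAC-1, PAC-2 and PAC-3, 1145, 1112 and 1208 CPM in RS and 1283, 1897 and 1989 CPM in ES. Each PAC sum lay far above all others, and ES-1 was the lowest ES library, close to RS-3. The median fold of PAC over RS was 20.6, and of PAC over ES 11.2. RS means were at least 10 times below PAC for 72 of the 105 and ES means for 60. ES-1 was the highest ES library for 5 of the 105, with a median ratio of 0.685 to the mean of the other ES libraries.

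Most of the extreme ES and RS differences concerned transcripts with no or few counts in 1 of the cell types. MSTRG.22607.2 had no counts in ES against 12.1, 26.8 and 29.6 CPM in RS, at least 182-fold lower against a floor of 3 counts per library. MSTRG.20881.4 had no counts in ES against 1.82, 0.993 and 1.73 CPM in RS, at least 12.1-fold lower, although PAC held 204, 167 and 134 CPM. Both were called lower (edgeR adjusted p = 0.000126 and 0.000567). Each had enough counts for the test only through RS, so it could be called in that direction alone. MSTRG.21997.3 was the lowest with counts in all libraries, at 65.7, 73.0 and 81.1 CPM in ES against 1086, 1036 and 1036 CPM in RS (log2 fold change -3.48, SE 0.13, edgeR adjusted p = 3.07e-06). It had 255, 341 and 314 CPM in PAC, so RS stood above both neighbours.

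In the other direction, MSTRG.15141.6 had 3.94, 8.90 and 0.431 CPM in ES, where RS had none, which puts ES at least 46.8-fold higher (edgeR adjusted p = 0.00444). Its adjusted p was 0.219 without ES replicate 1 and 0.0839 with no filter on low counts. MSTRG.24113.3 had 3.29, 8.51 and 7.13 CPM in ES against 0.309 CPM in RS-1 and no counts in RS-2 and RS-3 (log2 fold change 6.31, SE 0.77, edgeR adjusted p = 0.000313). MSTRG.11564.3 had 13.0, 23.9 and 24.1 CPM in ES against 3.55 CPM in RS-2 and no counts in the other RS libraries (log2 fold change 4.39, edgeR adjusted p = 0.011). That call was lost without ES replicate 1 (adjusted p = 0.0827), without the filter (0.1002) and with DESeq2 (0.149). All 3 passed the filter on low counts through their ES libraries and not through RS, so these p-values do not stand as support for the direction. For all 3, PAC was far above both, at means of 263, 67.5 and 531 CPM.

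Counts were missing from all libraries of a cell type for 4 transcripts. PAC-1, PAC-2 and PAC-3 held 78.9, 70.7 and 31.9 CPM of MSTRG.15141.5, and RS and ES held none, at least 641-fold and 482-fold lower than PAC. MSTRG.15141.6, of the same locus, was at least 2785-fold lower in RS than its 276, 264 and 249 CPM in PAC. MSTRG.20881.4 and MSTRG.22607.2 were at least 1338-fold and 619-fold lower in ES than in PAC. Reads shared by transcripts of 1 locus are split by estimation, so a transcript without counts had no reads assigned to it.

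Between ES and PAC, all 100 transcripts chosen in RS were tested: 39 were higher in ES, 29 lower and 32 not called, with a median log2 fold change of 0.30. Of all 24074 features 32.6% were higher and 28.6% lower, with a median of 0.05. With total counts alone the split was 32 higher and 40 lower, 44.4% of calls higher rather than 57.4%, and the median of the transcripts was -0.19 while that of all features was -0.43. The transcripts' shares, 39.0% and 29.0%, lay near those of all features. Of the 23 that reached 50 CPM in RS and ES 22 were higher in ES, of the 22 in PAC and RS 17 were lower, and of the 28 in RS alone 7 were higher and 3 lower; this grouping uses the compared levels.

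Lowest of these was MSTRG.9875.1, with 75.6, 136 and 176 CPM in ES-1, ES-2 and ES-3 against 1924, 1472 and 1394 CPM in PAC (log2 fold change -3.18, SE 0.29, edgeR adjusted p = 1.26e-05). It kept 1412, 1356 and 1307 CPM in RS, and its implied length of 275 bases gave it 5750.4 FPKM in PAC. MSTRG.9803.1 had 38.4, 44.4 and 36.2 CPM in ES against 336, 251 and 176 CPM in PAC (log2 fold change -2.20), and MSTRG.3631.2 had 92.1, 134 and 128 CPM in ES against 695, 589 and 576 CPM in PAC (log2 fold change -1.93). No ES library of these 3 overlapped the PAC range. Highest was MSTRG.21859.1, with 382, 383 and 295 CPM in ES against 13.7, 15.5 and 9.37 CPM in PAC (log2 fold change 5.28, SE 0.29, edgeR adjusted p = 9.99e-07). MSTRG.23917.3 had 2794, 2174 and 1672 CPM in ES against 89.3, 106 and 75.2 CPM in PAC (log2 fold change 5.14), and RS lay between at 579.9, 693 and 682 CPM. MSTRG.10219.2, given above, had a log2 fold change of 4.98. For these 3 the ratio of ES-1 to the mean of ES-2 and ES-3 was at most 1.45, and each ES library lay above all PAC libraries.

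**Figure D4:**
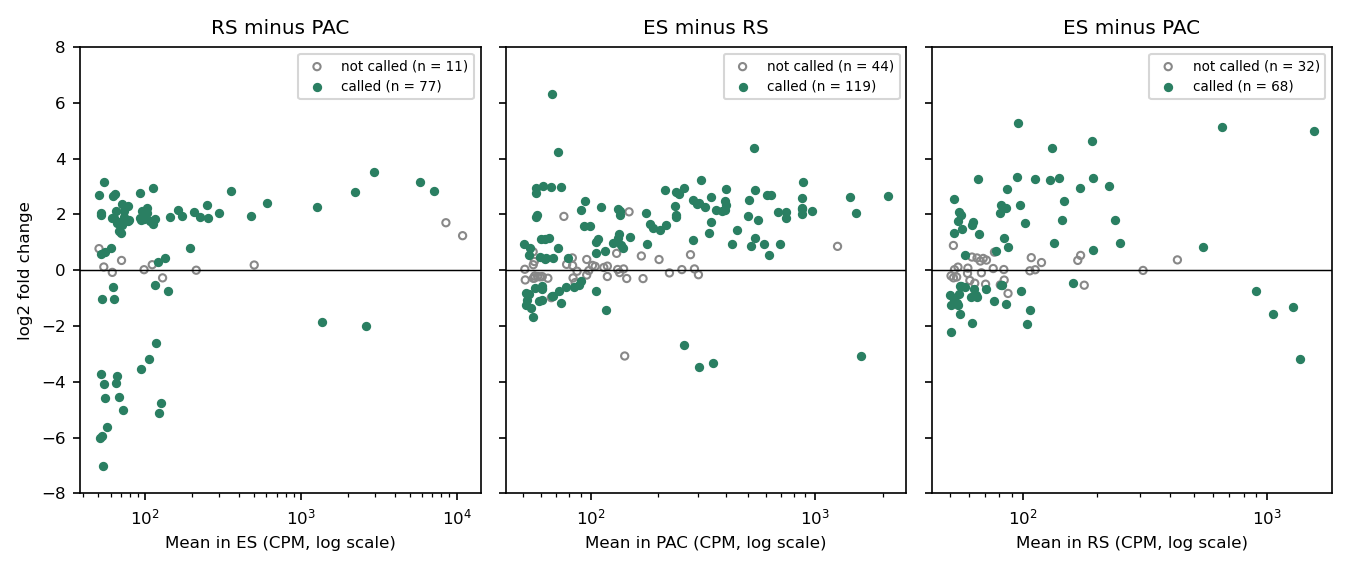
Log2 fold change (vertical axis) of each tested assembled transcript between RS and PAC, ES and RS, and ES and PAC, against its mean level in the cell type in which it was chosen (horizontal axis, CPM, log scale). Filled points passed an adjusted p of 0.05. The 3 transcripts with no counts in 1 of the compared cell types in ES minus RS are left out. Points of RS minus PAC fall into a higher band with 54 calls and a lower one with 23. The 94 higher calls of ES minus RS include MSTRG.15141.6, which is left out.

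Within loci, 129 of the 201 had 1 transcript in the table and 72 had at least 2, with 184 transcripts in all, 116 of them abundant. At least 2 abundant transcripts were found in 35 loci (79 transcripts): 28 loci had 2, 5 had 3 and 2 had 4. In 31 of the 35 all abundant transcripts were highest in the same cell type. The exceptions were loci 149, 1346, 19737 and 26430. The share of a transcript in the summed count of its locus moved between cell types by a median of 12.4 percentage points, by under 10 points for 48 transcripts and by over 20 for 41. The leading transcript differed between cell types in 20 of the 72 loci by counts and in 28 by FPKM, with 17 in both. Some of these changes of leader rest on very few counts in 1 cell type, as in locus 26570, whose transcripts were at or below 0.341 CPM in PAC and RS.

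Usage within a locus was tested as the change of a transcript against the others of its locus, with edgeR and in the same independent sets. Between RS and PAC, 31 abundant transcripts of 25 loci were tested, and 0 were called higher and 1 lower by edgeR, with 4 at an unadjusted p under 0.05, against 3.15% higher and 2.32% lower among 2284 assembled transcripts; limma's voom called 3 higher and 4 lower. Between ES and RS, 86 transcripts of 52 loci gave 3 higher and 3 lower calls by edgeR, against 1.35% and 1.69% of 2371. Among these edgeR calls, MSTRG.24113.3 (higher), MSTRG.22607.2 and MSTRG.20881.4 (both lower) entered the test only through the cell type where they were higher. Those calls do not stand as support for the direction. For ES and RS limma's voom called 11 higher and 7 lower. Between ES and PAC, 35 transcripts of 27 loci gave 1 higher and 0 lower calls by edgeR, with 4 at an unadjusted p under 0.05, against 3.54% and 2.27% of 2116; limma's voom called 1 higher and 4 lower. The percentages over all assembled transcripts are those of edgeR. None was computed for limma's voom, so its calls have no background to be set against. By both tools most tested transcripts had no called change of share within their locus.

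Locus 1346 gave the RS and PAC call. MSTRG.1346.2 had 47.2, 51.4 and 61.8 CPM in RS against 121, 114 and 81.7 CPM in PAC, while MSTRG.1346.1 had 277, 265 and 206 CPM in RS against 157, 139.7 and 124 CPM in PAC. The share of MSTRG.1346.2 was 18.0% ± 4.53 in RS and 42.8% ± 2.67 in PAC (SD, n = 3), a usage change of -1.28 on the log2 scale (edgeR adjusted p = 0.000789). The pair has nearly equal implied lengths, 2105 and 2148 bases, so the count shares are also shares per length. Each transcript was also called on its own level, MSTRG.1346.1 higher in RS (log2 fold change 0.79) and MSTRG.1346.2 lower (-1.02), the 1 locus with calls in both directions there.

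Locus 149 was the most abundant outside the 7. MSTRG.149.1 had 2350.1, 1765 and 2214 CPM in PAC, 546, 514 and 570.4 CPM in RS and 3118, 2676 and 2121 CPM in ES. MSTRG.149.2 had 1549, 1526 and 1461 CPM in PAC, 456, 426 and 404 CPM in RS and 1547, 1237 and 1322 CPM in ES. Both dipped in RS: MSTRG.149.1 was lower in RS than in PAC (log2 fold change -2.001) and higher in ES than in RS (2.67), and MSTRG.149.2 likewise (-1.86 and 2.07). By counts MSTRG.149.1 led in each cell type, with 58.1% of the locus in PAC, 55.9% in RS and 65.6% in ES. Per length MSTRG.149.2, at 1625 bases against 2803, led in PAC with 921 FPKM against 745 and in RS with 264 against 194, and MSTRG.149.1 led in ES with 943 against 844 FPKM. No usage change in locus 149 passed the test.

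**Figure D5:**
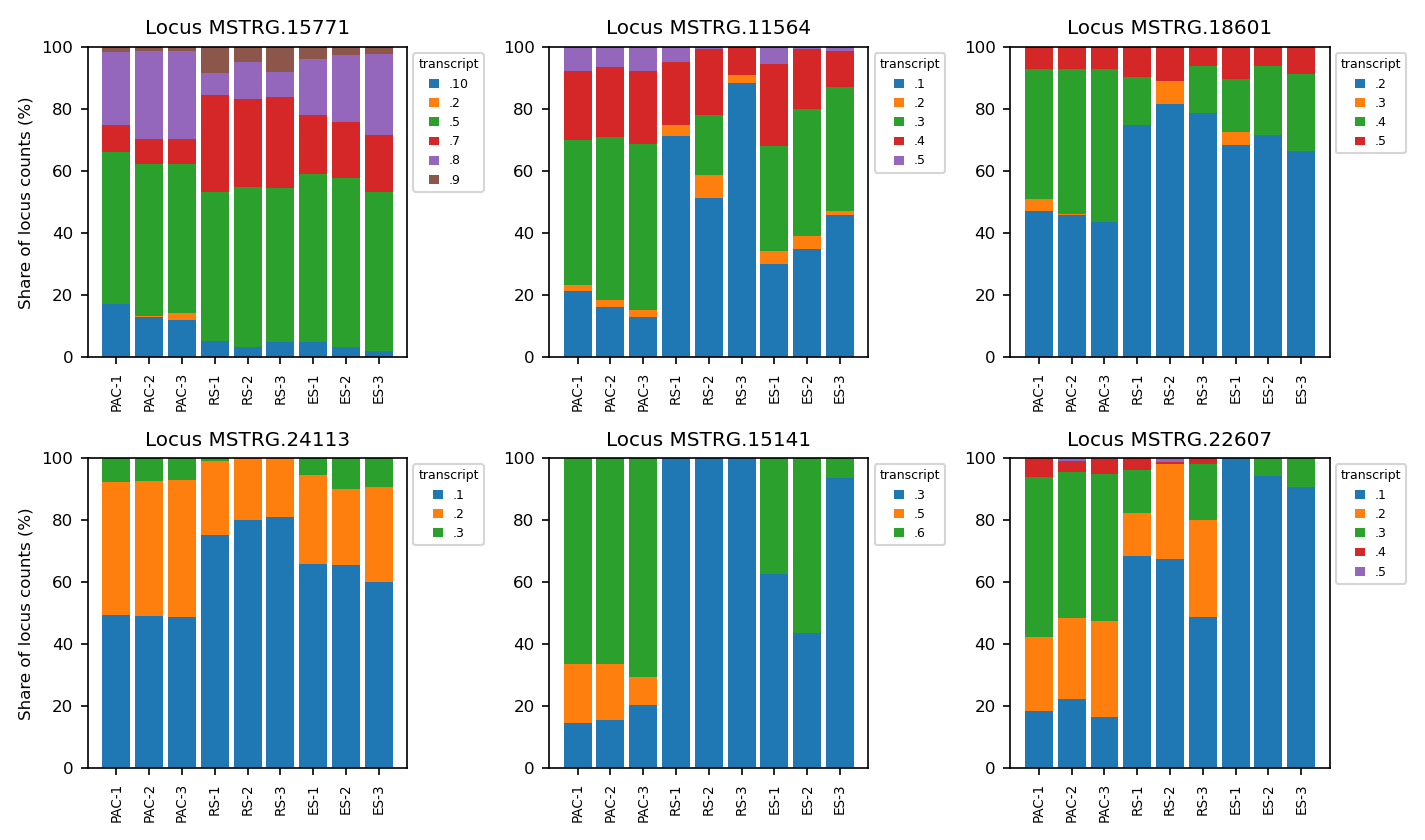
Share of each transcript in the summed count of its locus (vertical axis, percent) in each of the 9 libraries, for 6 of the 7 loci with at least 3 abundant transcripts, those with the highest summed level (locus 19737 is left out). Bars stack to 100%, colours are transcripts of that locus and mean nothing across loci. MSTRG.15141.3 makes up all counts of its locus in RS and 16.9% in PAC, and MSTRG.22607.1 makes up 94.9% in ES and 19.2% in PAC.

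At least 3 abundant transcripts were found in 7 loci, and in the 6 of them with the highest summed level all abundant transcripts were highest in PAC. In locus 19737, the remaining one, they peaked in PAC and RS. Locus 15771 had 1420.0, 1322 and 1559 CPM in PAC, 80.0, 77.7 and 102 CPM in RS and 84.1, 141 and 139 CPM in ES. MSTRG.15771.5, at 21920 bases, held near the same share throughout, 48.7% ± 0.486 in PAC, 49.7% ± 1.76 in RS and 53.2% ± 1.78 in ES. The others shifted: MSTRG.15771.8 had 26.7% in PAC, 9.09% in RS and 21.9% in ES, and MSTRG.15771.7 had 8.28%, 29.6% and 18.5%. MSTRG.15771.8 was called higher in usage in ES than in RS (1.30 on the log2 scale, edgeR adjusted p = 0.00397), a call lost without RS replicate 1 (0.0728) or RS replicate 3 (0.0521). MSTRG.15771.10 had 14.1% in PAC and 4.53% and 3.50% in RS and ES.

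Locus 11564 had a mean of 1045 CPM in PAC, 18.8 in RS and 52.5 in ES. MSTRG.11564.3 led in PAC with 50.9% ± 3.50 of the locus and in ES with 38.2% ± 3.86, and MSTRG.11564.1 led in RS with 70.4% ± 18.5. In RS the share of MSTRG.11564.3 was 6.44% ± 11.2, since 2 of the 3 RS libraries had no counts. Locus 18601, with the longest transcripts, had 1909 CPM in PAC, 23.1 in RS and 82.3 in ES. MSTRG.18601.2 and MSTRG.18601.4 had equal parts of it in PAC, 45.7% and 46.0%, and nearly equal implied lengths, but MSTRG.18601.2 had 78.3% in RS and 68.8% in ES against 10.2% and 21.4% for MSTRG.18601.4. That pair was tested between ES and RS, and neither change in usage was called (edgeR adjusted p = 0.998 and 0.653).

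In locus 24113 the usage call fell on the least abundant transcript, although its share moved by fewer percentage points than those of its neighbours. MSTRG.24113.3, 2658 bases, had 7.41% ± 0.322 of the locus in PAC, 0.368% ± 0.637 in RS and 8.24% ± 2.46 in ES, and its usage was higher in ES than in RS (4.58 on the log2 scale, edgeR adjusted p = 0.000100). As for its level, it entered this test only through its ES libraries. MSTRG.24113.1 led in all 3 cell types with 49.0%, 78.7% and 63.8%, and MSTRG.24113.2 had 43.5%, 20.9% and 27.9%. Locus 19737 gave a like call for its short transcript of 752 bases: MSTRG.19737.3 had 12.8, 6.997 and 8.36 CPM in ES against 1.37, 1.89 and 1.57 CPM in RS (usage 3.56 on the log2 scale, edgeR adjusted p = 8.41e-05). Its neighbour MSTRG.19737.2 was highest in RS, with 67.2% of the locus there, 15.9% in PAC and 20.9% in ES. MSTRG.11565.2 was called lower in usage in ES than in RS (-1.36 on the log2 scale, edgeR adjusted p = 0.0437), with 18.0% ± 4.52 of its locus in ES and 46.2% ± 16.5 in RS. That call was lost when any of the 6 libraries was left out, with edgeR adjusted p from 0.0556 to 0.194, and with no filter on low counts (0.0584).

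Locus 15141 kept a single transcript in RS. MSTRG.15141.6 led in PAC with 67.8% ± 2.46 of the locus, and MSTRG.15141.3 made up all of it in RS at 3.63, 4.22 and 3.61 CPM. In ES MSTRG.15141.3 had 66.6% ± 25.1, at 6.62, 6.93 and 6.14 CPM. Locus 22607 narrowed over the 3 stages. MSTRG.22607.3 led in PAC with 48.7% ± 2.48, and MSTRG.22607.1 led in RS with 61.5% ± 11.1 and in ES with 94.9% ± 4.72. MSTRG.22607.1 had 8.04, 12.7 and 19.7 CPM in ES against 59.3, 58.9 and 47.5 CPM in PAC, a level 1.58 lower on the log2 scale (log2 fold change -1.58), yet its usage was higher (2.30 on the log2 scale, edgeR adjusted p = 0.00379). Usage is measured against the other transcripts of the locus. Among them MSTRG.22607.2 had no counts in ES and could enter this test only through PAC, so the direction was in part fixed. The usage call of MSTRG.22607.1 was lost without PAC replicate 3 (edgeR adjusted p = 0.0528) and without ES replicate 2 (0.0549). MSTRG.22607.2 and MSTRG.20881.4, the transcripts with no counts in ES, were called lower in usage in ES than in RS. Both entered that test only through their RS libraries. The call of MSTRG.22607.2 (edgeR adjusted p = 0.0393) was lost when any of 5 of the 6 libraries was left out, with adjusted p from 0.0865 to 0.154, and with limma's voom (0.191).

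Replicates of the assembled transcripts spread about as much as other abundant features. Among those at 50 CPM in a cell type, PAC libraries had a median coefficient of variation of 13.0%, RS libraries 6.94% and ES libraries 18.8%, against 13.1%, 5.10% and 17.1% for other features at that level. The highest value was 94.9%, in ES, for MSTRG.15178.1. For the 7 transcripts highest in ES-1 a mean over ES stands for no 1 library.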

How the data were processed

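The authors deposited a table of estimated counts per feature, per the labels' column names raw counts, and a table of FPKM values of the same 50493 features. Of the count values 18.85% are not whole (74.3% among the transcripts described), so counts were rounded for the tests. HISAT2, StringTie and the build GRCm38.p6 are named, without versions, per the submitters' processing notes. The labels' protocols give ribosomal RNA removal and a dUTP second strand, so strand was kept; the lengths and totals behind FPKM and the strand setting of the counting are not stated. Transcripts of 1 locus share reads that are split by estimation, so their single values are less certain than sums.

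CPM is the count over the library total. The transcripts and marker lists were chosen with earlier results of these data known. Implied lengths used libraries with at least 100 counts of a transcript. Each comparison was fitted with edgeR 4.0.16 (R 4.3.3; TMM, filterByExpr with a minimum count of 10, robust quasi-likelihood fit, two-sided) on the 6 libraries compared, and usage with diffSpliceDGE. DESeq2 1.42.0, limma 3.58.1 and the other settings given below were alternatives. Fits were checked on simulated counts. Transcripts named are the 12 most abundant, the 3 highest and lowest called per comparison and per usage test, the loci with most transcripts or counts, the extremes of length and of the ES-1 ratio, those at the threshold and those without counts in a cell type; the other usage calls (MSTRG.15771.8, MSTRG.19737.3 and MSTRG.11565.2) and the loci 1346 and 26430 were named after their values were seen. TMM factors over all 9 libraries ran from 0.783 in ES-1 to 1.08. Deviations of same-numbered libraries from their cell type means had correlations of -0.0396 to 0.274. They were highest for ES and PAC, at 0.185 for number 1 and 0.274 for number 3, against -0.0236 for number 2. Numbers were not treated as pairs in the main fits, and fits with the number as a block are given below. Of the marker genes listed for structured small RNAs, 0 of 9 matched a feature. Summed marker levels not given below were 1732 to 1969, 3683 to 4124 and 1497 to 1655 CPM for 12 round spermatid genes in PAC, RS and ES, 98.3 to 123, 38.9 to 42.0 and 31.5 to 48.3 CPM for 8 spermatogonial genes, and 5.61 to 7.31, 15.1 to 26.4 and 19.0 to 22.7 CPM for 8 peritubular and vascular genes.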

Additional observations from a re-analysis of the deposited data

How the results depend on the processing

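Of 598 values of single tested transcripts under alternatives, none changed direction, 560 stayed on their side of the threshold, 30 lost a call and 8 gained one. A threshold of 25 CPM took 493 transcripts in 427 loci and one of 100 CPM took 130 in 105. Leaving out each library in turn left 244 to 249 transcripts in 200 to 205 loci. Called levels then ranged over 52 to 55 higher and 23 to 24 lower between RS and PAC, 83 to 90 and 20 to 36 between ES and RS (36 without ES replicate 1), and 36 to 39 and 23 to 32 between ES and PAC. The lower calls between ES and RS were 43 with limma on log2(FPKM + 1) and 43 on log2(FPKM + 0.1).

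Usage calls depended more on the setting. With the replicate number as a block, levels gave 54 higher and 23 lower calls between RS and PAC, 92 and 28 between ES and RS and 43 and 33 between ES and PAC, and usage between ES and RS gave 6 higher and 1 lower. Limma's voom gave 3 higher and 4 lower usage calls between RS and PAC, 11 and 7 between ES and RS, and 1 and 4 between ES and PAC. For voom no share over all assembled transcripts was computed. With all 9 libraries in 1 fit, usage gave 6 higher calls between ES and RS, and 0 higher and 1 lower between ES and PAC. Leaving out libraries gave 0 to 1 higher and 1 to 1 lower usage calls between RS and PAC, 2 to 5 and 1 to 2 between ES and RS, and 0 to 1 and 0 to 0 between ES and PAC. The causes were not tested. Scaled by TMM, the ES-1 ratio of the 7 transcripts was at least 3.95 and that of features outside the assembled set at most 2.67.

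With 3 libraries per cell type, small changes can be missed, and values of transcripts with a few counts in a library are set by counting error. Implied lengths rest on the authors' FPKM, and the choice of transcripts rests on counts, which are not scaled by length.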
